A study of Macaca mulatta with 4 samples.

Results

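The genes described here are the Notch receptors NOTCH1, NOTCH2 and NOTCH3, the ligands DLL1, DLL3 and JAG1, the HES genes HES1, HES5 and HES6, and DNER, a Notch-related transmembrane protein of neurons, in single nuclei of the fetal rhesus macaque cerebellum. They were chosen by name, and all 10 were found among 30807 genes, 9 by their symbol and DLL3 by its gene ID (ENSMMUG00000019093), since its row carries no symbol. Nuclei from frozen cerebellum (hemispheres and part of the vermis) of 4 fetuses were sequenced by a droplet method, with 1 library per fetus. The Control female and Control male fetuses were 130 days of gestational age and untreated. The LPS male and LPS female fetuses were 133 and 131 days of age and had received 1 mg of intra-amniotic lipopolysaccharide (LPS), a bacterial endotoxin used as a model of chorioamnionitis, 5 days before delivery. Each group thus held 2 fetuses, 1 of each sex, so the spread between libraries is that between animals and contains their sex.

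Notch receptors are cut after they bind a Delta or Jagged ligand on a neighbouring cell. The freed intracellular part joins RBPJ and a MAML coactivator in the nucleus and turns on HES and HEY genes, which code for repressors of neuronal genes. In the developing cerebellum the pathway is known for holding precursors and Bergmann glia in an undifferentiated or glial state, and in blood vessels for specifying arterial and mural cells. HES6 is an atypical HES protein that opposes HES1 and accompanies neuronal differentiation.

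The values are unique molecular identifiers (UMIs), the number of RNA molecules counted per gene and barcode, with introns included. A barcode counted as a nucleus if it held 500 genes or more and no more than 5% of its UMIs were mitochondrial, which gave 32565 nuclei. The libraries held 34282015 to 61665690 UMIs, 6890 to 9250 nuclei and a median of 1882 to 4508 UMIs per nucleus. The 4 libraries split by sex. The female libraries had median depths of 4508 and 4063 UMIs and mean mitochondrial shares of 0.263 and 0.211%, and the male libraries 1882 and 2308.5 UMIs and 0.0212 and 0.0315%. Pairs of libraries shared 16 to 21 barcodes. The LPS male library stood apart in 2 further ways. Only 38.7% of its UMIs lay in nuclei, against 58.7 to 73.9% in the others, and 1898 of the 2457 nuclei of a cluster of low UMI number came from it. That cluster and another, in which 62.0% of nuclei were called doublets, were given no name. The other 21 clusters took a class from marker genes, and each name stands for nuclei like that class. No marker list held any of the 10 genes, and neither these nor 44 further genes of the pathway were used in clustering. The granule lineage made 7 classes with 22326 nuclei, from proliferating precursors, committing and migrating cells to 2 maturing clusters led by ERBB4 and by CHRM3, later and mature granule cells. The name of the ERBB4 cluster rests on 5 of 11 maturing markers raised, against 11 of 11 in the CHRM3 cluster. Proliferating precursors shared their leading cell cycle genes with proliferating glia, and were told from them by summed markers of Bergmann glia, which were 666 to 805 CPM in the former and 9576 to 12638 CPM in the latter.

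A level is given as CPM, the UMIs of a gene per 1000000 UMIs of a class in 1 library, in the order Control female, Control male, LPS male and LPS female. Because introns were counted and gene lengths were not used here, levels are compared between classes and libraries and not between genes. In class sums, fewer nuclei with RNA and less RNA per nucleus cannot be told apart.

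**Figure D1:**
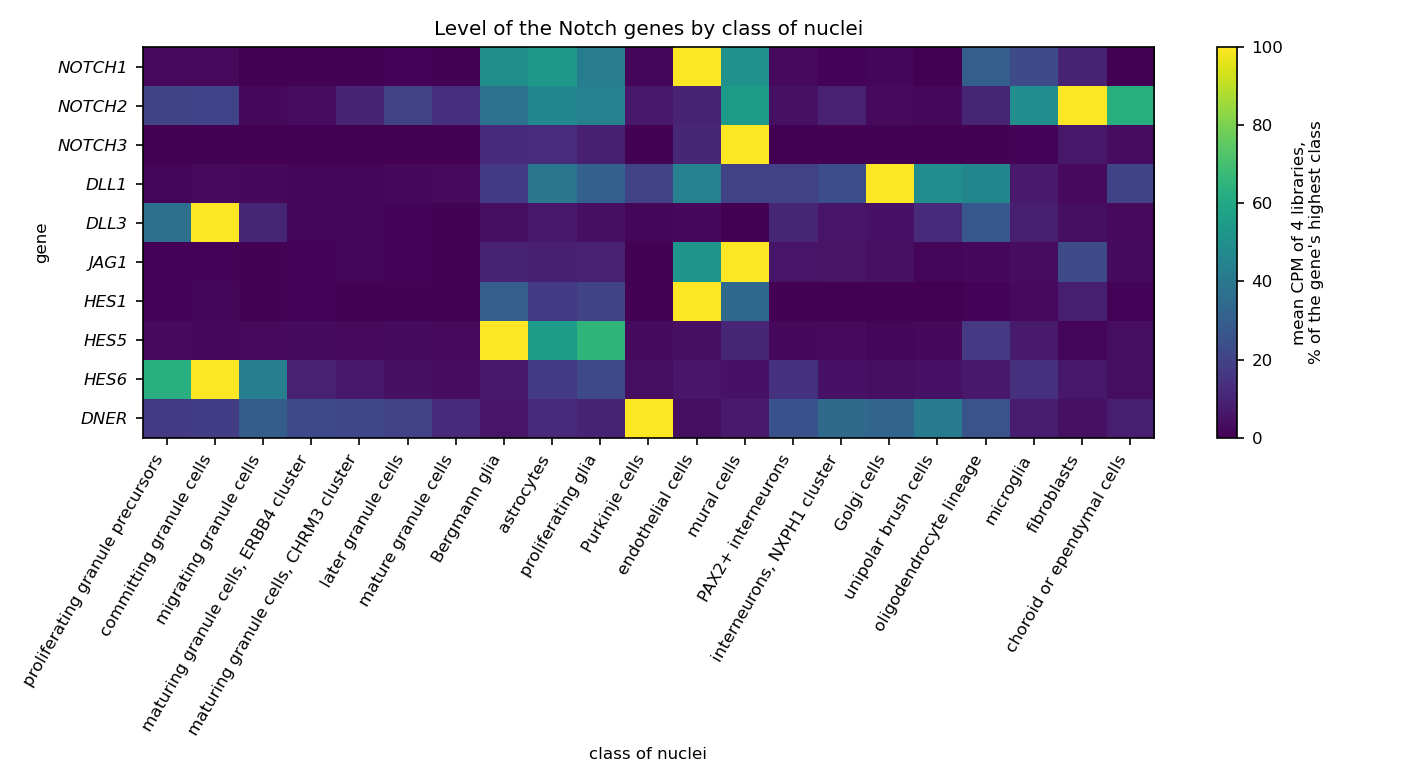
Mean CPM of each Notch gene over the 4 libraries in the 21 named classes (columns), as a percentage of the gene's own highest class (colour). HES6 and DLL3 were highest in committing granule cells, DNER in Purkinje cells, HES5 in Bergmann glia, NOTCH3 and JAG1 in mural cells, NOTCH1 and HES1 in endothelial cells, NOTCH2 in fibroblasts and DLL1 in Golgi cells.

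NOTCH1 and NOTCH3 had their highest levels outside the granule lineage and stayed low within it, while NOTCH2 was found in both. NOTCH1, the receptor needed for arterial growth and for keeping neural progenitors, was at 139, 373, 282 and 183 CPM in endothelial cells, at 103, 169, 158 and 91.8 CPM in astrocytes and at 78.8, 176, 153 and 74.9 CPM in Bergmann glia. These classes overlapped in range, but in each library the endothelial level was the higher, at 1.35 to 2.21 times that of astrocytes and 1.77 to 2.44 times that of Bergmann glia. Mural cells (73.1 to 169 CPM, on 1 to 6 UMIs per library) and proliferating glia (67.4 to 141 CPM) lay in the same range. The oligodendrocyte lineage followed with 40.2 to 122 CPM and microglia with 38.0 to 76.4 CPM. In the granule stages NOTCH1 stayed between 0 and 13.8 CPM, with means of 6.47 ± 5.80 CPM (SD, n = 4) in proliferating precursors and 1.47 ± 1.00 CPM in mature granule cells. Free RNA, taken from barcodes of at most 100 UMIs, held 11.6 to 25.2 CPM of NOTCH1, so that the granule values lay near or under the level of RNA outside nuclei. Unipolar brush cells had no NOTCH1 UMI in 75 nuclei, which allows up to 6.72 CPM, and choroid or ependymal cells had none in 39 nuclei, which allows up to 16.4 CPM (3 UMIs over all libraries, counting error only).

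NOTCH3, the receptor of vascular smooth muscle and pericytes, was the receptor most restricted to 1 class. It was at 585, 1222, 845 and 533 CPM in mural cells, the contractile cells of small vessels, and at 78.5 to 143 CPM in astrocytes, the next class, without overlap between the classes. The mural values rest on 31 nuclei in all, 6 to 9 per library, and on 74 UMIs of NOTCH3. Within each library the mural level was 6.50 to 14.6 times the endothelial level of 85.1, 93.3, 129.9 and 36.5 CPM. Summed mural markers in endothelial cells were 1834, 807, 3476 and 1003 CPM in the same libraries, so NOTCH3 was highest in the endothelial cells of the library that also held most mural marker RNA there. Their part in the NOTCH3 value was not tested. Bergmann glia (69.3 to 153 CPM) did not differ from astrocytes beyond the spread, and no granule stage rose above 9.19 CPM.

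NOTCH2 was the receptor with a course along the granule lineage. It was highest in fibroblasts, with 344, 343, 431 and 370.2 CPM, 1.74 to 2.84 times the level of astrocytes (175, 196, 152 and 171 CPM). Choroid or ependymal cells (171 to 327 CPM), mural cells, microglia, proliferating glia and Bergmann glia had ranges that overlapped that of astrocytes. The choroid or ependymal values rest on 3 to 23 UMIs per library and the mural values on 3 to 8. In the granule lineage NOTCH2 was at 89.9, 69.8, 82.8 and 63.3 CPM in proliferating precursors and at 68.4, 85.9, 83.9 and 60.1 CPM in committing cells. It then lay at 6.60, 7.43, 11.1 and 4.33 CPM in migrating cells, and the committing level was 7.56 to 13.9 times this level within the libraries. From there it was 5.18 to 19.9 CPM in the ERBB4 cluster, 29.2 to 51.2 CPM in the CHRM3 cluster and 74.5, 78.4, 72.7 and 63.1 CPM in later granule cells, 6.55 to 14.6 times the migrating level. Mature granule cells had 36.8 to 67.2 CPM. The free RNA level of NOTCH2, 50.6, 62.4, 54.2 and 29.7 CPM, was above the migrating level in each library. It was also above the CHRM3 cluster in all but the LPS female library, and above mature cells in both male libraries. The later level lay above free RNA in each library. Near-empty droplets were a block of barcodes further down the ranking by UMI number, as many as the library's nuclei and not next to them. They held 43.9, 79.7, 52.2 and 35.3 CPM. In the Control male library this was above the precursor and later levels. The share of nuclei with a NOTCH2 UMI was 1.13 to 2.85% in migrating cells (median depth 2920 UMIs) and 13.8 to 29.4% in later cells (4089 UMIs). After each nucleus was thinned to 1000 UMIs, it was 0.112 to 1.46% and 6.04 to 8.08%.

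Each ligand was highest in a different class. JAG1, the Jagged ligand of arteries, was at 622, 674, 507 and 449 CPM in mural cells, then at 263, 252, 389.8 and 282 CPM in endothelial cells, and at 131, 90.5, 192 and 105 CPM in fibroblasts. These 3 ranges did not overlap, but the mural values rest on 17, 16, 6 and 16 UMIs from 31 nuclei. Within the libraries the mural level was 1.30 to 2.68 times the endothelial level. Glia followed, with Bergmann glia at 48.4 to 71.7 CPM and astrocytes at 24.6 to 73.8 CPM, while PAX2+ interneurons had 19.5 to 39.0 CPM. The granule stages stayed at or under 10.6 CPM, below the 15.6 to 36.0 CPM of free RNA.

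DLL3, a divergent Delta ligand that acts mainly inside the cell and blocks Notch rather than activating it on neighbours, peaked in committing granule cells, with 77.3, 92.5, 134 and 88.2 CPM. Proliferating precursors had 27.3, 32.4, 56.1 and 29.6 CPM, and the committing level was 2.40 to 2.98 times higher. Migrating cells had 10.0, 9.72, 11.1 and 10.2 CPM, and all later stages had at most 3.31 CPM. Free RNA held 9.62 to 15.6 CPM, so the migrating level lay near it and the committing level above it in each library. A DLL3 UMI was found in 13.6 to 26.2% of committing nuclei (median depth 2767 UMIs) and in 0.0958 to 0.474% of later granule nuclei (4089 UMIs), or in 6.67 to 14.9% and 0.0599 to 0.414% at 1000 UMIs. Outside the lineage the oligodendrocyte lineage was next, at 21.1, 35.4, 15.3 and 34.9 CPM, and mural cells had no DLL3 UMI in 31 nuclei, which allows up to 30.4 CPM.

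DLL1, an activating Delta ligand, was sparse, with 512 UMIs in all nuclei. Golgi cells, inhibitory interneurons of the granule layer, had 28.6, 36.0, 71.2 and 50.2 CPM, 2.59 to 8.24 times the level of PAX2+ interneurons. The oligodendrocyte lineage had 21.1, 22.5, 22.9 and 19.2 CPM and astrocytes 16.1, 25.0, 15.4 and 16.6 CPM. Unipolar brush cells came second by mean, but this rests on 2 UMIs in 8 nuclei of the Control male library, and endothelial cells (6.64 to 43.3 CPM) on 2 to 5 UMIs per library. Granule stages were at or under 3.43 CPM, and free RNA held 4.46 to 10.8 CPM. Near-empty droplets held 8.64, 5.90, 3.62 and 21.2 CPM. In the LPS female library this was above the oligodendrocyte lineage and astrocytes and under Golgi cells.

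DNER is a transmembrane protein with EGF-like repeats that is known as an abundant Purkinje cell protein. Purkinje cells had 1052, 817, 803 and 985 CPM of DNER from 127 nuclei, 2.65 to 3.90 times the migrating granule level and above every other named class in all 4 libraries. Unipolar brush cells (212 to 569 CPM), interneurons of the NXPH1 cluster (245 to 359.9 CPM) and Golgi cells (269.8 to 332 CPM) followed and overlapped. Along the granule lineage DNER went from 177, 130.4, 167 and 141 CPM in proliferating precursors to 316, 213, 303 and 252 CPM in migrating cells and 153, 75.5, 69.1 and 147 CPM in mature cells. Free RNA was at 342, 152, 182 and 273 CPM, within the range of the granule stages or above it. Near-empty droplets held 551, 180, 222 and 486 CPM. In both female libraries this was above every granule stage, Golgi cells and the NXPH1 cluster. The Purkinje level lay above both measures of background in each library. Astrocytes were at 126, 108, 91.4 and 122 CPM and Bergmann glia at 61.1, 36.6, 60.8 and 47.5 CPM. The astrocyte value was 1.5 to 2.95 times the Bergmann value within the libraries. Both classes lay under free RNA and near-empty droplets in each library. Endothelial cells had the lowest mean of the named classes, at 21.7 to 44.5 CPM.

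The HES genes divided between vessels, glia and young granule cells. HES1, the Notch target that represses neuronal genes in progenitors, was at 259, 550.4, 444 and 681 CPM in endothelial cells. Mural cells had 256, 126, 84.5 and 197 CPM, on 1 to 7 UMIs per library. In Bergmann glia HES1 was at 114, 123, 215 and 135 CPM and in astrocytes at 72.2, 77.0, 99.6 and 79.1 CPM, and the Bergmann level was the higher in 4 of 4 libraries, by 1.57 to 2.16 times. Granule stages were at or under 8.09 CPM, with free RNA at 23 to 56.1 CPM.

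HES5, the HES gene most closely tied to Notch activity in radial glia, was a gene of glia here. Bergmann glia had 41.3, 37.5, 121 and 62.6 CPM, proliferating glia 23.9, 16.3, 83.1 and 47.6 CPM and astrocytes 38.5, 20.02, 61.6 and 23.3 CPM. The 3 ranges overlapped, while the Bergmann level was 1.07 to 2.69 times the astrocyte level within the libraries. Astrocytes did not overlap the next class, the oligodendrocyte lineage, at 3.22 to 17.8 CPM. Free RNA held 27.4, 13.2, 23 and 28.9 CPM of HES5, above the proliferating glia of the Control female and the astrocytes of the LPS female library and under the Bergmann level in each library. Near-empty droplets held 19.8, 3.54, 6.46 and 37.3 CPM, under the proliferating glia of the Control female library and otherwise in the same order. Endothelial cells, where HES1 was highest, had 0 to 7.73 CPM of HES5. A HES5 UMI was found in 6.72 to 25.1% of Bergmann glia (median depth 3758.5 UMIs) against 0.322 to 1.44% of later granule cells (4089 UMIs), and thinned to 1000 UMIs in 3.38 to 10.8% against 0.120 to 0.384%.

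HES6 was the HES gene of the young granule lineage. The study used HES6 with DCC to mark granule cells committing to differentiation in these same libraries. The marker list of the committing class left HES6 out but held DCC and drew on the study's tables. A HES6 peak in that class was therefore not independent of its name. It was at 757, 456, 518 and 969.8 CPM in proliferating precursors, at 1159, 721, 859.6 and 1559 CPM in committing cells and at 495, 299, 344 and 698 CPM in migrating cells. It then lay at 73.0 to 129.6 CPM in the ERBB4 cluster, 39.1 to 99.6 CPM in the CHRM3 cluster, 29.1 to 62.7 CPM in later cells and 41.7, 23.1, 25.2 and 57.4 CPM in mature cells. The committing level was 1.53 to 1.66 times that of precursors and 27.2 to 34.1 times that of mature cells, so the ratios were close between libraries although the levels were not. Committing nuclei held a HES6 UMI in 65.8 to 96.5% of cases (median depth 2767 UMIs), and fibroblasts, a class that should lack it, in 8.37 to 25.4% (3743 UMIs). At 1000 UMIs the shares were 49.6 to 76.0% and 3.13 to 9.72%. Free RNA held 638, 299, 221 and 916 CPM of HES6, more than any named class outside the granule lineage in the same library. It was above the migrating level in both female libraries and about equal to it in the Control male library, while the committing level was above free RNA in each library. The near-empty droplets (median 196 to 496 UMIs) gave a second measure of background RNA. In them HES6 was at 401, 151, 82.9 and 564 CPM, under the migrating level in all 4 libraries. In the LPS male library it was also under proliferating glia. Astrocytes (210.0, 131, 137 and 251 CPM) had 1.90 to 3.35 times the HES6 level of Bergmann glia.

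**Figure D2:**
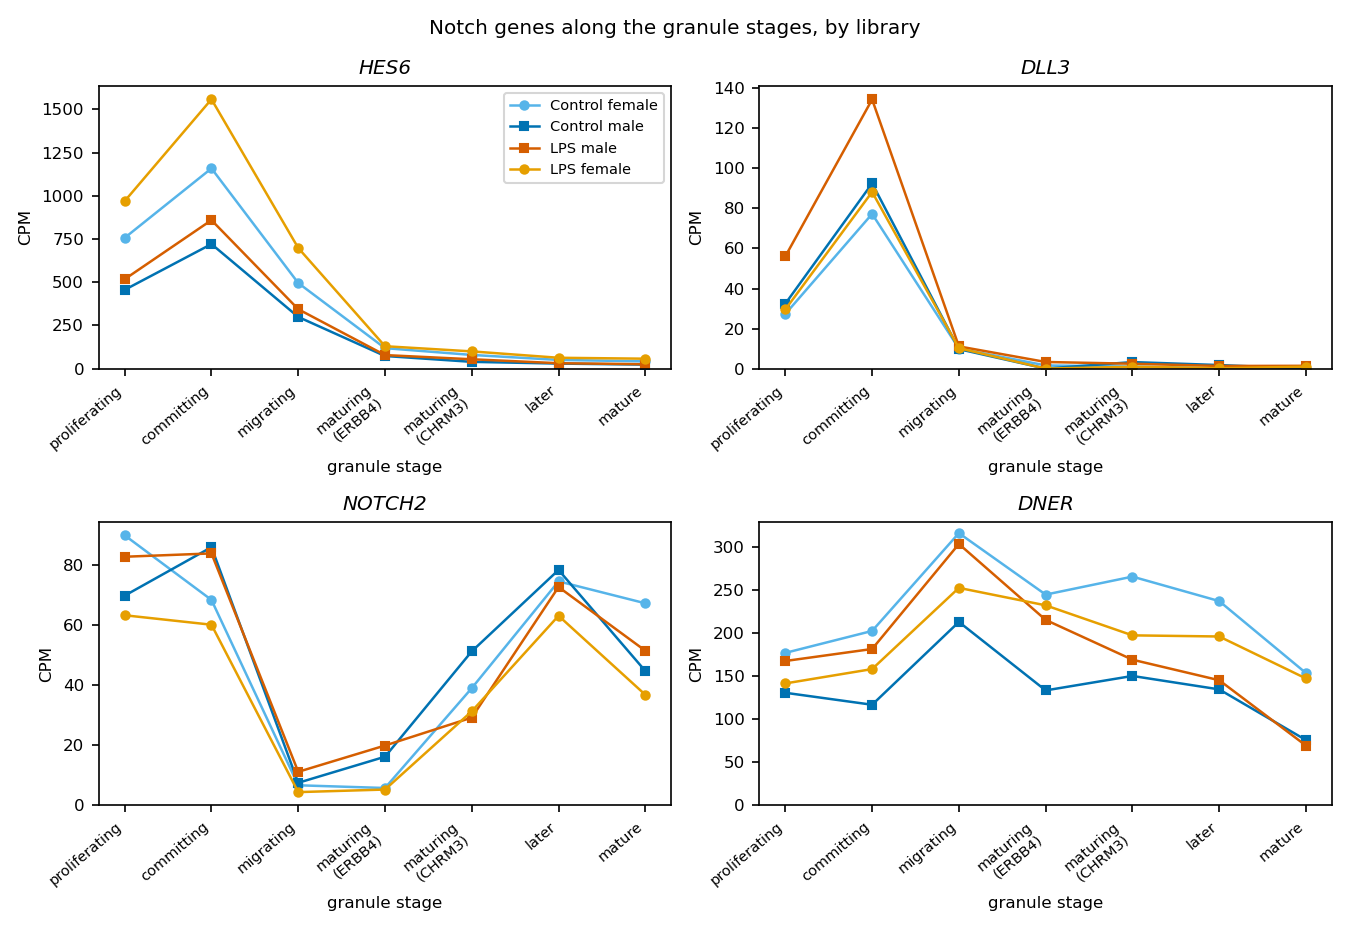
CPM of HES6, DLL3, NOTCH2 and DNER (vertical axes) in the 7 granule stages (horizontal axes), with 1 line per library. HES6 and DLL3 peaked in committing cells in each of the 4 libraries, NOTCH2 was lowest in migrating or ERBB4 maturing cells, and DNER was highest in migrating cells. The study itself used HES6 as a marker of the committing stage.

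**Figure D3:**
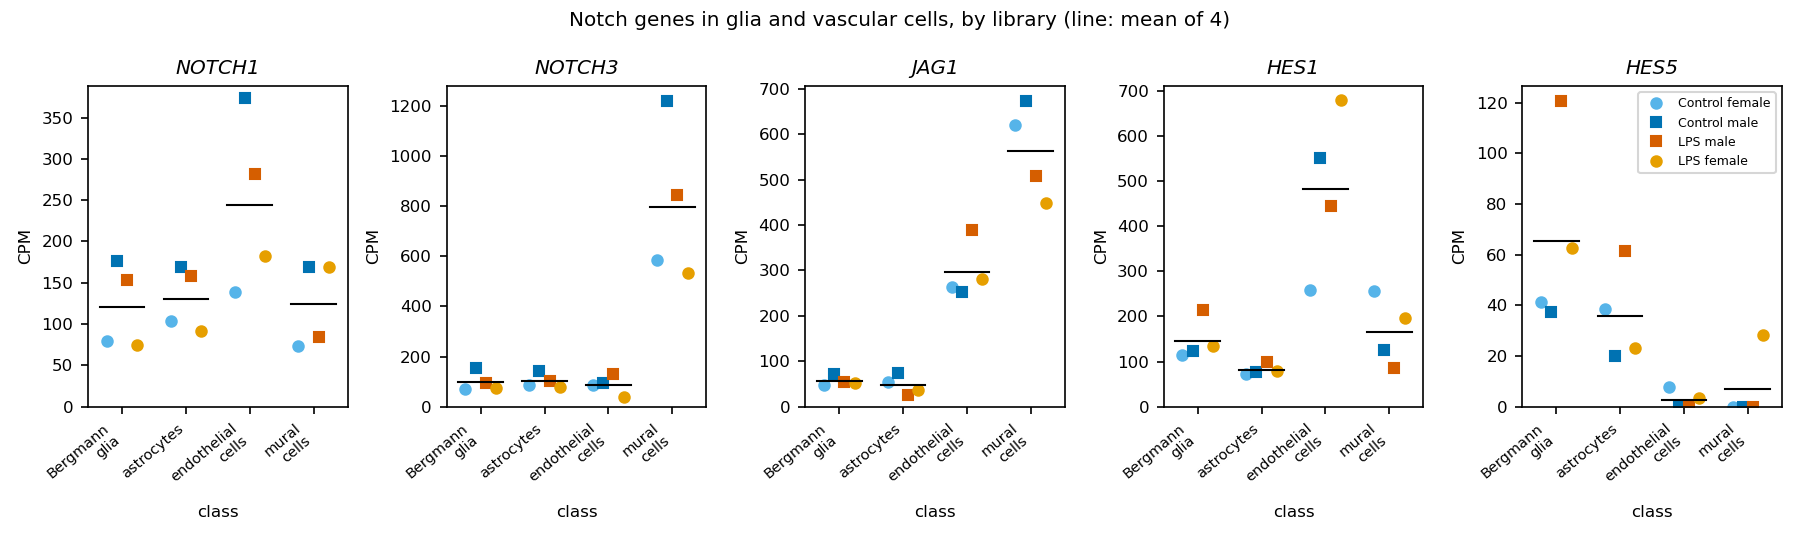
CPM of NOTCH1, NOTCH3, JAG1, HES1 and HES5 (vertical axes) in Bergmann glia, astrocytes, endothelial and mural cells, with 1 point per library and the mean of the 4 as a line. NOTCH3 and JAG1 were highest in mural cells, NOTCH1 and HES1 in endothelial cells and HES5 in Bergmann glia.

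The genes whose levels ran most like each of these were taken by Pearson r of log2(CPM + 1) over 84 points, 21 classes in 4 libraries, among 13410 other genes. The points share libraries and depth, and r is a description only. Genes whose levels ran with NOTCH3 included PDGFRB (r = 0.87), the receptor that marks mural cells, and the Notch target HEY2 (0.87). HES1 was most like HEY2 (0.83), TFPI (0.82) and PDGFRB (0.82), and JAG1 like HES4 (0.83), TFPI (0.81) and NID1 (0.79). Genes most like NOTCH1 were ARHGAP31 (0.85), GSN (0.80) and RHOJ (0.79), and those most like NOTCH2 were SPIDR (0.77), SPATS2L (0.77) and TTC23 (0.76). HES6 ran with TFDP2 (0.79), CD63 (0.79) and MCM7 (0.78), a replication licensing factor. DLL3 ran with HSD11B2 (0.71), a gene known by its ID only and SMARCC1 (0.65), HES5 with 2 genes known by ID and ID4 (0.74), DNER with 1 such gene, ASTN1 (0.81) and ATP8A2 (0.79), and DLL1, at its low counts, with ELFN2 (0.69), GAREM2 (0.60) and RASGRP2 (0.60).

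The comparison of LPS with Control asks whether these genes differed within a class between exposed and untreated fetuses. The LPS fetuses were also older (133 and 131 against 130 days), and the Control fetuses received no injection. The endotoxin therefore cannot be told apart from age or from the injection itself. It was made in 12 classes, the 7 granule stages, Bergmann glia, astrocytes, Purkinje, endothelial and mural cells, on UMIs summed per class and library, with edgeR's quasi-likelihood test over all genes of the class. A gene was called at a Benjamini-Hochberg adjusted p under 0.1 with a log2 fold change over 0.25 in size. No Notch gene was called. Of 120 pairs of gene and class, 68 had enough UMIs for the test, 2 of them had an unadjusted p under 0.05 in edgeR and 1 in DESeq2, and neither tool called any. The background was equally empty, since edgeR called 0 of 109478 tests, or 0%, with 421 at an unadjusted p under 0.05, and DESeq2 called 9, or 0.00822%. With sex as a replicate block edgeR called 12, or 0.011%, none of them a Notch gene. The median log2 fold change, LPS minus Control, was 0.034 over the 68 pairs and 0.0055 over all tests, with 35 pairs positive and 33 negative. Standard errors of the pairs ran from 0.29 to 1.21 on the log2 scale. edgeR does not report them, and each was taken as the size of the log2 fold change over the square root of the test's F.

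**Figure D4:**
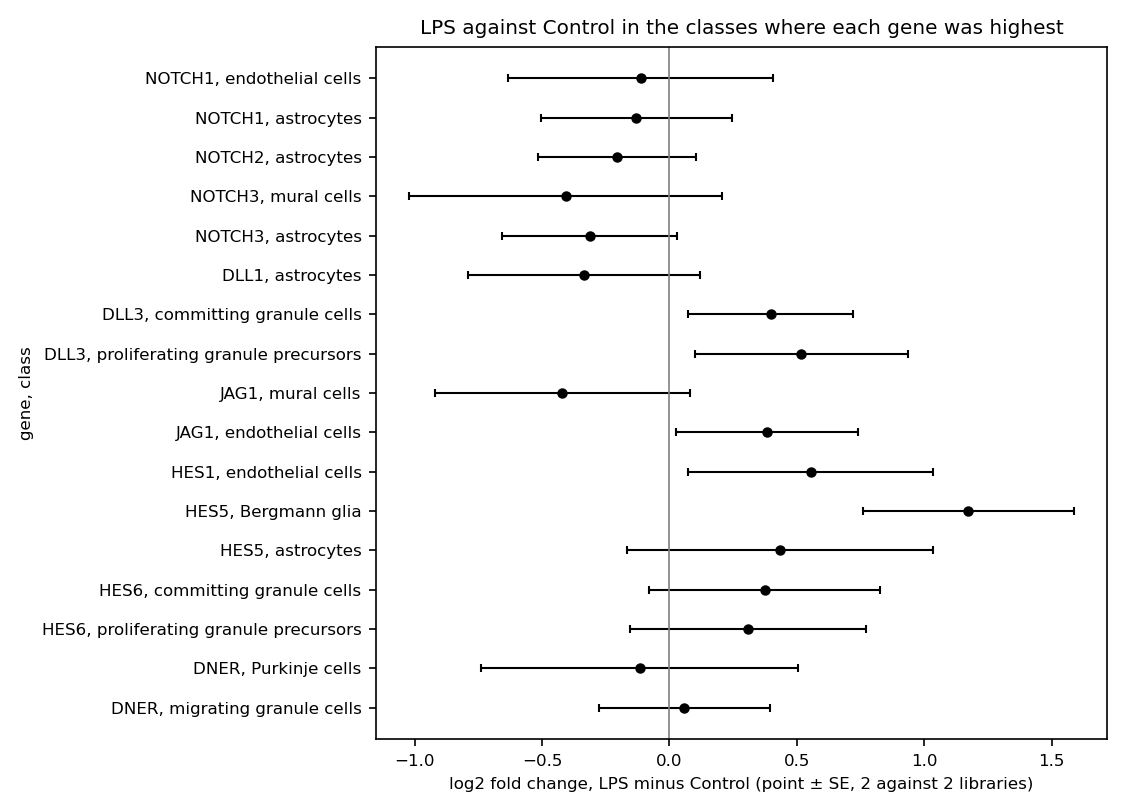
Log2 fold change, LPS minus Control (horizontal axis, point from edgeR and SE derived from its F statistic, 2 against 2 libraries), of each Notch gene in those of its highest 2 compared classes that could be tested (rows). HES5 in Bergmann glia lay farthest from 0, at 1.17, and no row passed the adjusted threshold.

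Both LPS libraries lay above both Control libraries in 8 of the 68 pairs (11.8%), against 8.97% of all tests, and below them in 8 (11.8%), against 7.65%. Both shares were near the background. The pairs above were HES5 in Bergmann glia and later granule cells, HES1 in Bergmann glia and astrocytes, NOTCH2 and HES6 in Purkinje cells, DLL3 in migrating granule cells and JAG1 in endothelial cells. Those below were NOTCH2 in the CHRM3 maturing cluster, later granule cells, Bergmann glia and astrocytes, JAG1 in later granule cells, astrocytes and mural cells, and DNER in endothelial cells. Some of these pairs were at low levels or close together. HES5 and JAG1 in later granule cells (1.11 to 2.98 and 2.30 to 8.86 CPM) lay under free RNA in each library. So did DNER in endothelial cells (21.7 to 44.5 CPM) and HES6 in Purkinje cells (19.3 to 55.7 CPM). NOTCH2 in the CHRM3 cluster lay under free RNA in all but the LPS female library. DLL3 in migrating cells was at 10.0 and 9.72 CPM in Control and 11.1 and 10.2 CPM in LPS. NOTCH2 in Purkinje cells rested on 4 to 15 UMIs per library.

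HES5 in Bergmann glia had the largest value, a log2 fold change of 1.17 ± 0.41 (SE, edgeR adjusted p = 1.00, unadjusted p = 0.027 by the quasi-likelihood test). The groups did not overlap, with 41.3 and 37.5 CPM in Control and 121 and 62.6 CPM in LPS, and the LPS male library was highest. Summed Bergmann markers were 23656 and 18078 CPM in the Control and 15181 and 23187 CPM in the LPS libraries, lowest in the LPS male library, and their part in the HES5 value was not tested. In astrocytes HES5 overlapped between the groups and the value was 0.44 ± 0.60. The log2 ratio of LPS to Control was -0.73 in the female and 1.62 in the male libraries there, and 0.60 and 1.69 in Bergmann glia. HES1 had log2 fold changes of 0.55 ± 0.33 in Bergmann glia and 0.24 ± 0.31 in astrocytes, neither of which passed the test, with both LPS libraries above both controls. In endothelial cells, its highest class, HES1 was at 0.56 ± 0.48, with 259 and 550.4 CPM in Control and 444 and 681 CPM in LPS, and ranged from 0.12 without the LPS female to 1.16 without the Control male library.

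JAG1 in astrocytes was the other pair with a low unadjusted p, with a log2 fold change of -1.01 ± 0.41 (edgeR adjusted p = 1.00, unadjusted p = 0.048 by the quasi-likelihood test). Control astrocytes had 53.8 and 73.8 CPM and LPS astrocytes 24.6 and 37.2 CPM, without overlap. Free RNA of JAG1 was at 26.0 and 36.0 CPM in Control and 15.6 and 26.5 CPM in LPS, under the astrocyte level in each library. Near-empty droplets held 37.5 and 30.1 CPM in Control and 10.3 and 37.3 CPM in LPS, about the astrocyte level in the LPS female library. The part of this background RNA was not tested. Summed astrocyte markers in the same nuclei were 11021 and 6554 CPM in Control and 5585 and 9240 CPM in LPS, lower in LPS within each sex, and summed granule markers were 893 and 1971 CPM and 2337 and 867 CPM. Their part in the JAG1 value was not tested. In the classes where JAG1 was highest its log2 fold changes were -0.42 ± 0.50 in mural and 0.38 ± 0.36 in endothelial cells. The LPS male library, highest for JAG1 in endothelial cells, also held most summed mural marker RNA there (3476 CPM against 807 to 1834 CPM), whose part was not tested. DLL3 in committing cells was at 0.40 ± 0.32 and in proliferating precursors at 0.52 ± 0.42. The LPS female library, with 88.2 CPM in committing cells, lay between the 2 controls, so only the LPS male library was above them. Without the LPS male library the values were 0.077 and 0.025. DLL1 could be tested in astrocytes, with -0.34 ± 0.45, and not in endothelial cells, where its counts were too low.

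HES6 was at 0.37 ± 0.45 in committing cells and 0.31 ± 0.46 in precursors, and between 0.13 and 1.13 over the 11 classes tested, with none passing the test. These classes share their libraries. With sex as a block the values were 0.36 ± 0.16 in committing cells (edgeR adjusted p = 0.996) and 0.29 ± 0.17 in precursors (adjusted p = 1.00). Free RNA of HES6 was higher in LPS than in Control in the female libraries (916 against 638 CPM) and lower in the male libraries (221 against 299 CPM), and its part was not tested. In Purkinje cells both LPS libraries (55.7 and 50.1 CPM) were above both controls (19.3 and 28.0 CPM), on 7 to 23 UMIs per library, and summed granule markers in the LPS male Purkinje nuclei were 1153 CPM against 163 to 272 CPM in the others. DNER in Purkinje cells was at -0.12 ± 0.62 and in migrating granule cells at 0.058 ± 0.34. The receptors were at -0.11 ± 0.52 (NOTCH1) in endothelial cells, -0.41 ± 0.61 (NOTCH3) in mural cells and -0.13 ± 0.38, -0.20 ± 0.31 and -0.31 ± 0.34 (NOTCH1, NOTCH2 and NOTCH3) in astrocytes. NOTCH2 and HES1 in mural cells had too few UMIs for the test.

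The split of the libraries by sex was larger than that by exposure, and male was compared with female by the same test after this was seen. It called 18 of the 68 pairs (26.5%), against 27.1% of all tests, a share near the background, which ran from 0% in mural cells to 35.9% in proliferating precursors. Sex cannot be told apart from depth and mitochondrial share, which differ in the same way, nor from a difference in processing between these pairs of libraries, for which the labels give no batch. HES6 was called lower in the male libraries in 9 of 11 classes, with log2 differences, male minus female, from -1.19 in mature granule cells to -0.85 in committing cells (-0.85 ± 0.20, edgeR adjusted p = 0.027). The Purkinje and endothelial differences of -0.047 ± 0.60 and -0.28 ± 0.47 were not called. Free RNA showed the same order, with 638 and 916 CPM of HES6 in the female and 299 and 221 CPM in the male libraries, and the part of free RNA was not tested. DNER was called lower in the male libraries in 4 classes, up to -1.24 ± 0.17 in mature granule cells (edgeR adjusted p = 0.024). Free RNA of DNER ran the same way, with 342 and 273 CPM in the female and 152 and 182 CPM in the male libraries, and was above the mature granule level in each library. NOTCH1 was called higher in 3 classes, in Bergmann glia by 0.91 ± 0.17 (edgeR adjusted p = 0.024), in astrocytes by 0.55 ± 0.17 (adjusted p = 0.077) and in proliferating precursors on 37 UMIs. Free RNA of NOTCH1 was also higher in the male libraries (25.2 and 23.8 CPM) than in the female libraries (11.6 and 12.03 CPM), and in each library the precursor level lay under it. In near-empty droplets NOTCH1 overlapped between the sexes (14.8 and 7.23 CPM against 5.04 and 8.35 CPM), and the precursor level of the LPS male library lay above it. The part of free RNA in the DNER and NOTCH1 differences was not tested. NOTCH3 was higher in both male than in both female libraries in 7 of 7 classes tested, and was called in proliferating precursors alone. Over all tests both male libraries lay above both female libraries in 38.6% and below them in 25.2%. Free RNA of NOTCH3, at 11.6 and 19.2 CPM in the female and 43.2 and 16.3 CPM in the male libraries, overlapped between the sexes, and in near-empty droplets it did not (7.56 and 5.78 CPM against 20.1 and 10.1 CPM). NOTCH2 was called higher in the male libraries in the ERBB4 maturing cluster (1.54 ± 0.40, edgeR adjusted p = 0.029), where it lay under free RNA in each library.

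**Figure D5:**
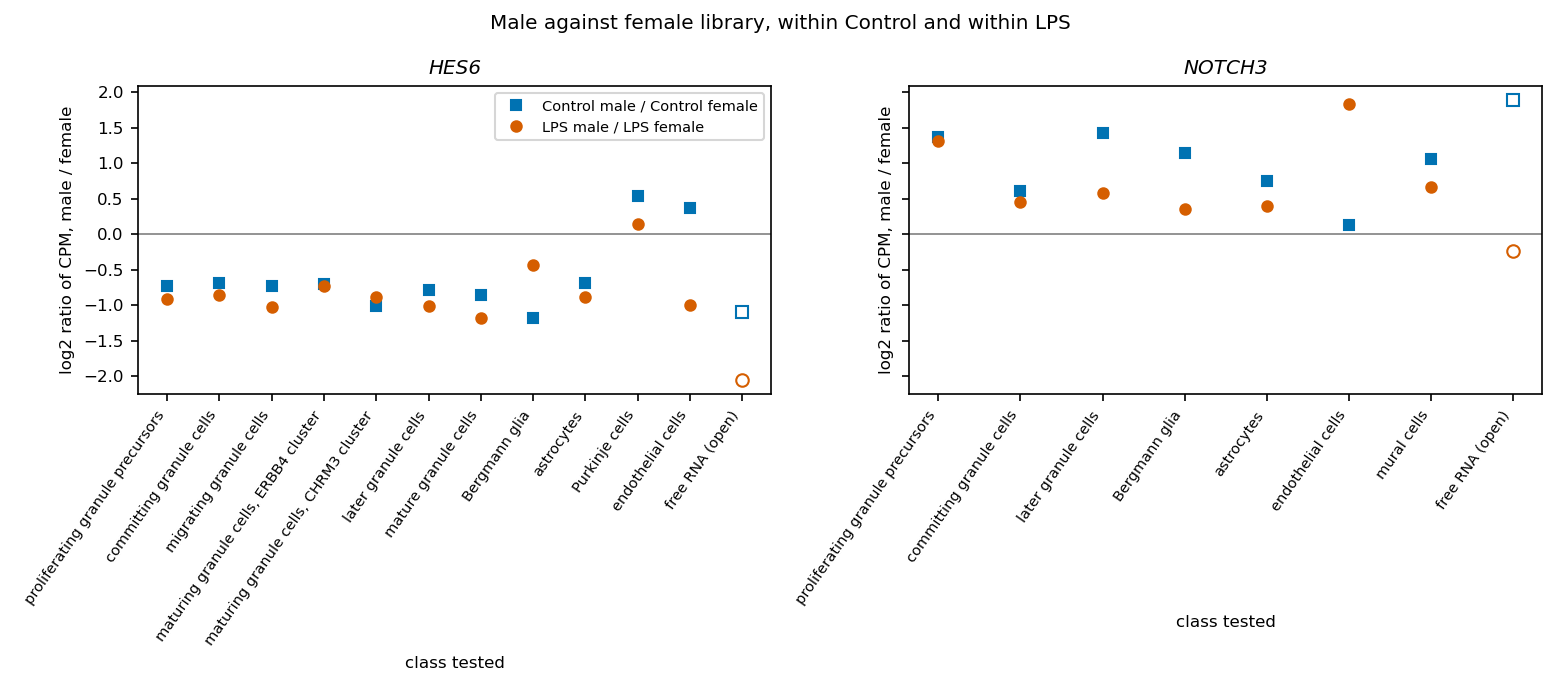
Log2 ratio of CPM, male to female library (vertical axes), of HES6 and NOTCH3 in each class tested (horizontal axes), within Control and within LPS, with free RNA as open symbols. HES6 lay below 0 in both groups in 9 of 11 classes and NOTCH3 above 0 in 7 of 7.

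Of 48 further genes of the pathway 44 were found and 36 could be tested in at least 1 class, in 313 pairs. None was called by edgeR, 2 had an unadjusted p under 0.05, and the median log2 fold change was 0.0023. Both LPS libraries were above both controls in 33 pairs (10.5%), against 8.97% of all tests, and below in 18 (5.75%), against 7.65%. The 2 with a low p by the quasi-likelihood test were HES4 in endothelial cells (unadjusted p = 0.013) and CNTN6 in migrating granule cells (unadjusted p = 0.040). HES4, a HES gene next to HES1 in kind, was at 1.33 ± 0.41 (129.5 and 84.0 CPM in Control, 259.9 and 279 CPM in LPS). Summed mural markers in endothelial cells were 1834 and 807 CPM in Control and 3476 and 1003 CPM in LPS, and their part in the HES4 value was not tested. CNTN6, a contactin described as a Notch ligand, was at 1.37 ± 0.51 (108 and 69.8 CPM against 333 and 137 CPM). It was positive in every other class tested but endothelial cells (-0.61 ± 0.70), with 1.55 ± 0.69 in Bergmann glia and 1.17 ± 0.67 in astrocytes. Of the 3163 mature granule nuclei, its highest compared class, 1519 came from the LPS male library. The part of RNA from other classes in the CNTN6 values was not tested. The 12 genes with most UMIs per 1000000 in a compared class were taken, without an order between genes, and each is given in the compared class where it was highest. MAML3 and MAML2, both coactivators of the cut receptor, were highest in migrating granule cells (2774 ± 93.1 CPM, SD, n = 4) and in mural cells (2042 ± 253 CPM). The contactins CNTN1 and CNTN6 were highest in the CHRM3 cluster (1305 ± 254 CPM) and in mature granule cells (843 ± 363 CPM), and EGFL7 in endothelial cells (1285 ± 504 CPM). The Notch inhibitor NUMB (492 ± 174 CPM), the ligase gene NEURL1B (293 ± 211 CPM) and the targets HES4 (397 ± 89.1 CPM) and HEY2 (266 ± 59.7 CPM) were highest in mural cells among the 12 compared classes, where NEURL1B and HEY2 rest on 4 to 8 UMIs per library, HES4 on 5 to 18 and NUMB on 6 to 20. ADAM10, which makes the first cut, was highest in endothelial cells (406 ± 55.7 CPM). RBPJ (279 ± 15.2 CPM) and the corepressor SPEN (299 ± 44.9 CPM) were highest in committing granule cells, the stage of HES6 and DLL3.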

How the data were processed

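Nuclei from cerebellum of 2 Control and 2 LPS fetuses were sequenced, 1 library each. The authors deposited UMI counts per gene and barcode, raw and unfiltered, for every barcode. Per the labels and the submitters' processing notes they were made with Cell Ranger 4 on Mmul_8.0.1, while the paper's methods name another version. The ambient RNA removal described in the methods is not in these counts.

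Nuclei were integrated and clustered in Seurat 5.3.0 (R 4.3.3) with 2000 features, 30 dimensions and a resolution of 0.5. Doublets, called by Scrublet in scanpy 1.11.5 (Python 3.11.15), were kept. Its automatic threshold marked 0% of both male libraries and was replaced there by the median of the others, giving 410 to 553 doublets per library. Counts were summed per class and library and tested in edgeR 4.0.16 (filterByExpr, TMM), with DESeq2 1.42.0, other scaling, no filter, sex as a block, stricter nuclei, doublets removed and each library left out as alternatives. The fetus was the replicate. With 2 against 2 an exact permutation test cannot go below p = 0.333, so none is given. The edgeR step was tested on simulated data.

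The 10 genes, the pathway list and the marker lists were chosen with earlier results of these data known, and the marker lists hold genes that the study drew from these libraries. All 10 genes were named, with fold changes in their 2 highest compared classes and where called. Groups that did not overlap were also named, after their values were seen. Pathway genes were named if called or among the 12 of highest mean CPM, and HES4 and CNTN6 in the named classes for their unadjusted p. In the thinning to 1000 UMIs, 83, 728, 121 and 80 nuclei of named classes had fewer UMIs and were left out. One of the genes most like a Notch gene is not reported here. The labels give no replicate numbers.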

Additional observations from a re-analysis of the deposited data

Results flagged for a closer look

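In 6 of the 20 pairs of gene and highest class, the LPS library was above the Control library in one sex and below it in the other. With 1 library of each kind the difference between the sexes was not tested. The log2 ratio of LPS to Control CPM was 0.39 in the female and -0.41 in the male libraries for NOTCH1 in endothelial cells, and 1.39 and -0.31 for HES1 in the same cells. It was -1.06 and 1.00 for NOTCH2 in mural cells, on 3 to 8 UMIs per library. In astrocytes it was 0.047 and -0.70 for DLL1 and -0.73 and 1.62 for HES5. In migrating granule cells DNER was at -0.32 and 0.51.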

How the results depend on the processing

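No Notch gene was called, LPS against Control, in any alternative run, and the 10 levels in the highest compared classes moved by less than 1 SD without doublets and with nuclei of at least 1000 genes. The count of all genes called, 0 in edgeR, was 9 in DESeq2, 91 with no filter, 12 with sex as a replicate block, 7 with nuclei of at least 1000 genes, 1 with the study's number of nuclei (in the LPS female library fewer nuclei than that passed, and all 6890 were kept) and 3 to 88 with 1 library left out. It was 10 without the Control female, 3 without the Control male, 14 without the LPS male and 88 without the LPS female library. Sex as a block changed no call of a Notch gene. The cause of these shifts was not tested. Of 17 tested fold changes, NOTCH1 in endothelial cells (log2 fold change -0.11) changed sign with all libraries in place, to 0.040 with the sex block and 0.055 with at least 1000 genes. With doublets removed it was -0.25, and NOTCH2 in astrocytes went from -0.20 to -0.12, JAG1 in mural cells from -0.42 to -0.20 and HES1 in endothelial cells from 0.56 to 0.31. DNER went from -0.12 to -0.18 in Purkinje cells with no filter, and in migrating granule cells from 0.058 to 0.023 with no filter and 0.026 with at least 1000 genes. With 1 library left out, 8 changed sign. The log2 fold changes then ran from -0.60 to 0.72 for NOTCH1 in endothelial cells, -0.48 to 0.15 for NOTCH1 in astrocytes, -0.82 to 0.17 for NOTCH3 in mural cells, -0.32 to 1.15 for HES5 in astrocytes, -0.16 to 0.82 and -0.27 to 0.79 for HES6 in committing cells and precursors, and -0.40 to 0.27 and -0.25 to 0.44 for DNER in Purkinje and migrating granule cells. Others kept their sign but moved by over 1.5 times, from 0.12 to 1.16 for HES1 in endothelial cells, 0.077 to 0.65 and 0.025 to 0.89 for DLL3 in committing cells and precursors, -0.55 to -0.038, -0.39 to -0.060 and -0.53 to -0.13 for NOTCH3, NOTCH2 and DLL1 in astrocytes, 0.25 to 0.56 for JAG1 in endothelial cells and 0.72 to 1.51 for HES5 in Bergmann glia. Where a group was left with 1 library, that library was assumed to vary like the others. Mural and Purkinje values rest on 31 and 127 nuclei.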
